A study of Mus musculus with 4 samples.

Results

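Zfp genes encode zinc finger proteins, and this account covers the ones expressed on arrays of mouse embryonic stem (ES) cells and of epiblast-like tissue made from them. A gene was taken when its symbol was Zfp followed by a number alone, and when its mean over all 4 arrays was at least 7 on the log2 scale. Zfp36, Zfp42, Zfp57 and Zfp521 were left out by the same rule. Of 18193 genes measured, 301 had such a symbol and 181 of these reached the level. The genes were thus chosen by their mean level, and the day of a sample did not enter the choice. Still, 23 of them lay under 7 on the lower day and passed only through the other; 6 of these 23 were called higher and 8 lower.

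Day 0 held 2 samples of ES cells and day 3 held 2 samples of tissue grown by SFEBq, a serum-free floating culture in which the cells quickly reaggregate into bodies resembling embryoid bodies. All 4 samples carry one cell type label, that of differentiated mouse ES cells, and the labels give no genotype, drug or name of a cell line. Biotin-labelled RNA was measured on Affymetrix arrays, and the values are log2 signals made by RMA, a procedure that makes the distributions of the arrays alike. Whether the replicates were separate cultures was not stated, so the p-values reflect only how far these samples lie apart, and that scatter may be technical. With bulk RNA, fewer cells of a type and less RNA per cell cannot be told apart.

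Most Zfp proteins carry rows of C2H2 fingers, short loops held by a zinc ion that read DNA bases, and many also carry a KRAB box at their start. The KRAB box recruits Trim28, which brings the histone methyltransferase Setdb1 and heterochromatin proteins to the bound site. In ES cells this pathway is known for silencing retroelements and for keeping imprints, and its genes have multiplied into clusters on several chromosomes. Not every gene with the symbol is of this kind. Zfp185, for example, encodes a LIM domain protein, and Zfp622 and Zfp598 act on ribosomes.

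Marker genes followed the labels of the days. All 6 naive stem cell markers fell (summed linear signal 19613 and 20598, then 2387 and 2157), and all 5 epiblast markers rose (7829 and 6905, then 28023 and 25937). Visceral endoderm markers, those of an extra-embryonic tissue, rose too (10 of 10), and their summed linear signal went from 1185 to 1190 at day 0 to between 16035 and 18287 at day 3. Of 6 fibroblast markers 3 rose, with a summed signal of 239 to 241 and then 501 to 503. Of 6 markers of the 2-cell-like state 3 were measured, and these fell. RMA gives each probe set a value above 0, so no marker is listed at 0. The part of these other cells in any Zfp result below was not tested.

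More expressed Zfp genes fell than rose between the days. Of the 181 genes, 66 were lower at day 3, 40 were higher and 75 were not called (limma, Benjamini-Hochberg adjusted p under 0.05 over all 18193 genes). Over all genes tested 42.3% were called (20.9% higher and 21.4% lower). Over the 9089 genes at a mean of at least 7 the share was 62.8%, with 29.0% higher and 33.7% lower. The Zfp genes stood at 58.6%, with 22.1% higher and 36.5% lower, so their share called was close to that of other genes at this level.

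The median difference of the Zfp genes was -0.07, compared with -0.04 for genes at a mean of at least 7 and 0.01 for all genes. When each array was instead centred on its median, the median difference of all genes moved to -0.12. The split then became 29 Zfp genes higher and 87 lower. Relative to the median of all genes, the Zfp median was -0.079 under both scalings and -0.045 after a second quantile normalization. The quartiles of the Zfp differences were -0.44 and 0.19, against -0.33 and 0.29 for genes at this level, so both lay lower. Among the 158 Zfp genes at 7 or more on both days, 34 were higher and 58 lower.

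**Figure D1:**
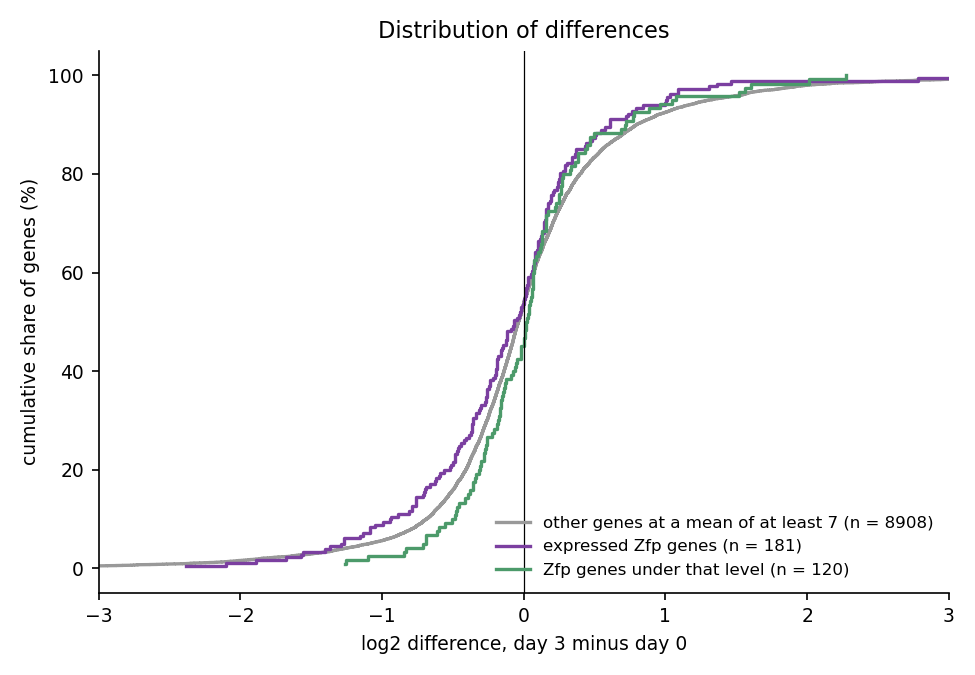
Cumulative share of genes (%) against the log2 difference of day 3 minus day 0, for the 181 expressed Zfp genes, the 120 Zfp genes under the level and 8908 other genes at a mean of at least 7. The curve of the expressed Zfp genes lies to the left of the other genes over most of the range, with medians of -0.07 and, for all genes at the level, -0.04. Differences beyond 3 in either direction, such as that of Zfp608, are outside the plot.

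Large changes were few. A difference of at least 2-fold was seen in 26 genes (10 up, 16 down), or 14.4% of the Zfp genes, against 13.1% of all genes at a mean of at least 7. A difference under 0.2 in size was seen in 66 genes. In 148 of 181 genes (81.8%) both arrays of one day lay above both of the other, compared with 84.4% of genes at this level and 69.0% of all genes. Replicates lay close together, with a median SD of 0.061 at day 0 and 0.055 at day 3 and a largest SD of 0.39. The smallest called difference was 0.185 in size and the largest uncalled one 0.312. The size of a difference bore no visible relation to the level (r = 0.04 across the 181 genes, which share arrays).

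Split by level, the share of falls lay below or above that of all genes depending on the band. Of 67 Zfp genes between 7 and 8, 14 were higher and 19 lower, or 20.9% and 28.4% against 31.0% and 26.2% of all genes in that band. Of 49 between 8 and 9, 13 were higher and 15 lower, or 26.5% and 30.6% against 29.7% and 34.4%. Between 9 and 10 the counts were 8 higher and 20 lower of 39, or 20.5% and 51.3% against 29.4% and 37.6%. At 10 and above they were 5 higher and 12 lower of 26, or 19.2% and 46.2% against 27.0% and 35.6%. Whether these shares differ between Zfp and other genes was not tested.

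**Figure D2:**
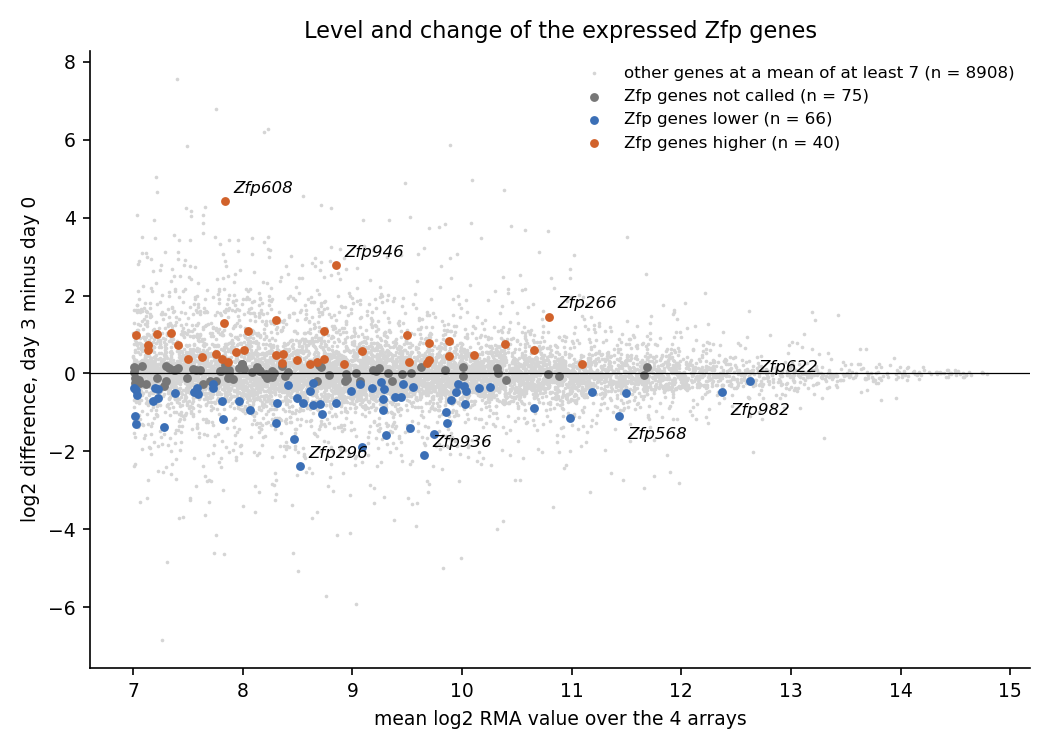
Log2 difference of day 3 minus day 0 against the mean log2 RMA value over the 4 arrays; grey dots are 8908 other genes and coloured dots the 181 Zfp genes (40 higher, 66 lower, 75 not called). Zfp608 and Zfp946 stand far above the other Zfp genes, at 4.43 and 2.79, while the lowest value is the -2.39 of Zfp296.

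Zfp608 rose more than any other Zfp gene. Its product is known as a repressor of the Rag recombinase genes in thymocytes. It was at 5.87 and 5.39 on the day 0 arrays and at 10.13 and 9.98 on the day 3 arrays. The days were far apart, and its day 0 mean of 5.63 ± 0.34 (SD, n = 2) lay below the median of all probe sets. The difference was 4.43 ± 0.14 (SE) (limma, adjusted p = 3.8e-09), and no fold is given since RMA compresses values as low as those of day 0. A second probe set rose by 2.53, so the size depended on the probe set while the direction was shared. Zfp608 reached the level of 7 only through day 3, so its large difference goes with its selection.

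Zfp946 came next. Its values were 7.47 and 7.44 at day 0 and 10.35 and 10.13 at day 3, a difference of 2.79 ± 0.09 (SE, adjusted p = 4e-09). Zfp266, whose product is known to hinder reprogramming to pluripotency, went from 10.20 and 9.93 to 11.56 and 11.49. It was the brightest of the 12 largest rises on both days, and its difference of 1.46 ± 0.09 (adjusted p = 2.6e-07) was accompanied by rises of 0.99, 0.57 and 1.48 in its 3 other probe sets.

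The next rises were near 2-fold. Zfp334 went from 7.47 and 7.78 to 9.09 and 8.89, a difference of 1.37 ± 0.12 (SE). Its kept probe set may match several transcripts, and the other one lay near 4 on both days, with a difference of 0.16 that was not called. Zfp942 went from 7.36 and 6.99 to 8.52 and 8.45, a difference of 1.31 ± 0.12. Zfp606 (1.09), Zfp275 (1.09), Zfp938 (1.03), Zfp362 (1.01), Zfp30 (1.001) and Zfp512 (0.999) followed, and Zfp770 closed the 12 largest rises at 0.84. Zfp30 is known for its effect on the neutrophil chemokine Cxcl1. The replicates of Zfp512 lay close together, with means of 8.999 ± 0.0074 and 9.998 ± 0.0070 (SD, n = 2). Zfp938, Zfp362 and Zfp30 had day 0 means under 7, as did Zfp608.

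Zfp296 fell most. It encodes a partner of Klf4 that is known in ES cells and germ cells. Its values were 9.66 and 9.78 at day 0 and 7.31 and 7.35 at day 3, a difference of -2.39 ± 0.08 (SE) on the log2 scale or 5.23-fold (limma, adjusted p = 6.6e-09). The arrays of each day lay within 0.12 of each other or less, far closer than the days.

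Zfp936 went from 10.72 and 10.69 to 8.64 and 8.57 (-2.10 ± 0.07, SE). Zfp975 went from 10.05 and 10.01 to 8.26 and 8.01 (-1.89 ± 0.09), and its second probe set fell by 1.77. Both lie on chromosome 7, and the kept probe set of Zfp975 carries a suffix that marks probes shared between related sequences. Zfp423, which encodes a cofactor of Smad and Ebf proteins needed in the cerebellum and in fat cells, went from 9.38 and 9.24 to 7.74 and 7.51 (-1.68 ± 0.10).

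Zfp59 fell by 1.57 ± 0.07 (SE) in its kept probe set, from 10.06 and 10.13 to 8.51 and 8.54. Its second probe set was dim on both days (4.05 and 4.20) and gave 0.14, not called. Zfp428 (-1.56), Zfp229 (-1.40), Zfp870 (-1.37), Zfp819 (-1.29), Zfp532 (-1.27), Zfp654 (-1.27) and Zfp820 (-1.16) completed the 12 largest falls. Zfp870 and Zfp819 had day 3 means under 7 (6.59 and 6.38), so they reached the level only through day 0. Arrays that do not overlap between the days were a condition for these 24 genes.

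**Figure D3:**
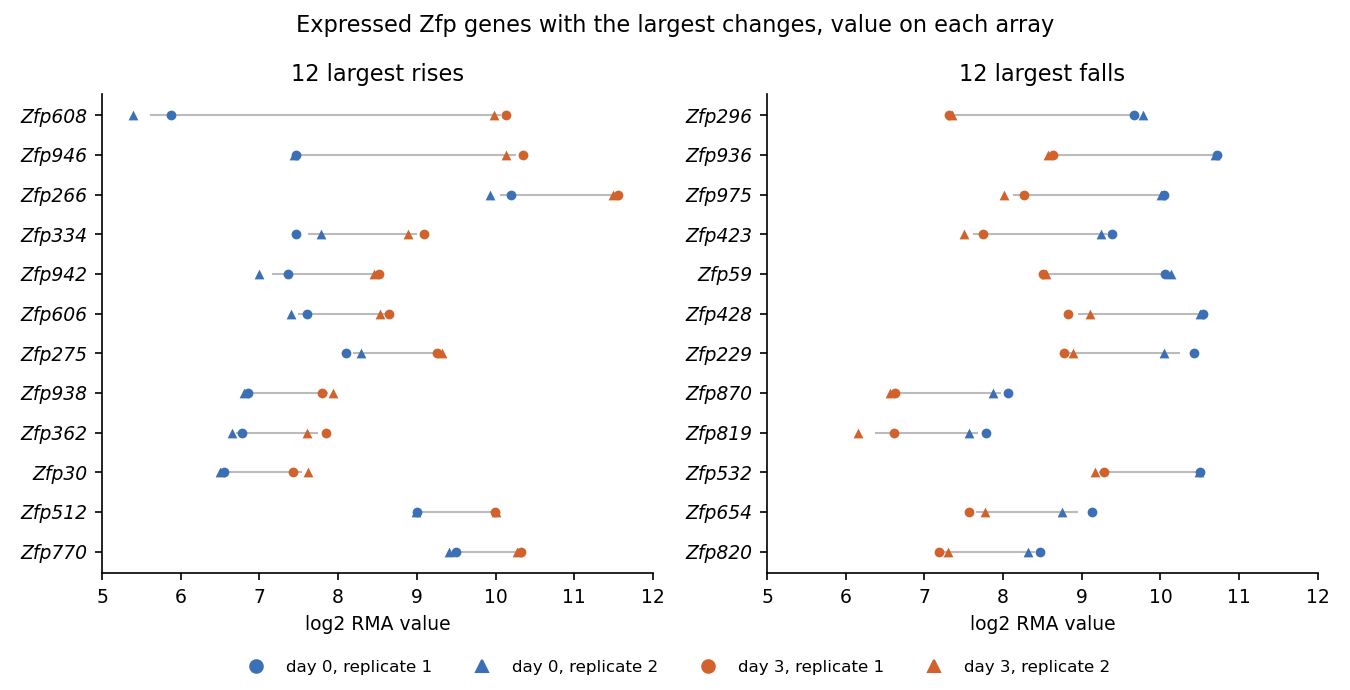
Log2 RMA value on each of the 4 arrays (blue, day 0; orange, day 3; circle, replicate 1; triangle, replicate 2) for the 24 expressed Zfp genes that rose or fell most, 12 each way; grey lines join the day means. Zfp608 starts at 5.63 on average and ends at 10.06, while Zfp296 goes from 9.72 to 7.33.

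Promoter sequences from RefSeq (GRCm38.p6) were present for 148 of the 181 genes, and the 250 bases before the start site were read. The windows of Zfp296, Zfp936 and Zfp975 are shown because these genes fell most, and those of Zfp946, Zfp266 and Zfp334 because they rose most after Zfp608, whose window is not shown. Capitals mark an E-box (CACGTG) or the core of the NRF1 site (GCGCATGC, on either strand), and a window in lower case only holds none of the motifs searched. The Zfp946 window is chr17:22423952-22424201 on the plus strand, that of Zfp266 chr9:20521420-20521669 on the minus strand and that of Zfp334 chr2:165388260-165388509 on the minus strand. The Zfp296 window is chr7:19577037-19577286 on the plus strand, that of Zfp936 chr7:43177340-43177589 on the plus strand and that of Zfp975 chr7:42692719-42692968 on the minus strand.
Zfp946: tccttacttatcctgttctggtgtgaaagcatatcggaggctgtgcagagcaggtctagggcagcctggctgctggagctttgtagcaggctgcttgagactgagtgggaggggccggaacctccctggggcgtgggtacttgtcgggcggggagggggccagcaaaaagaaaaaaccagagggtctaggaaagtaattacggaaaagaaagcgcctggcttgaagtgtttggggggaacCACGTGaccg
Zfp266: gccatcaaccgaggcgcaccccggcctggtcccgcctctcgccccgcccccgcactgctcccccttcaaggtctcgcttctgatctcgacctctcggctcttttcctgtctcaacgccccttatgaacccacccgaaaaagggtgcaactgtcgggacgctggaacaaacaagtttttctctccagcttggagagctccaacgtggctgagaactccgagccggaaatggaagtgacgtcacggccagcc
Zfp334: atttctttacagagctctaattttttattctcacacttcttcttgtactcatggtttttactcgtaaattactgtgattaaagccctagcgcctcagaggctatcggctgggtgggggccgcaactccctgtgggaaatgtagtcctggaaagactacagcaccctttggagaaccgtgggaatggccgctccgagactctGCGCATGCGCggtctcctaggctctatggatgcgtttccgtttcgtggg
Zfp296: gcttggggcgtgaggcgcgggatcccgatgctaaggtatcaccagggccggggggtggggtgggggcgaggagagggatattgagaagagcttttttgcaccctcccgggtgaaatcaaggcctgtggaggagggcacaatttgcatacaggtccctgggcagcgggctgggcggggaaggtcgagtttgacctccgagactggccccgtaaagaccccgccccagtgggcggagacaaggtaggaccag
Zfp936: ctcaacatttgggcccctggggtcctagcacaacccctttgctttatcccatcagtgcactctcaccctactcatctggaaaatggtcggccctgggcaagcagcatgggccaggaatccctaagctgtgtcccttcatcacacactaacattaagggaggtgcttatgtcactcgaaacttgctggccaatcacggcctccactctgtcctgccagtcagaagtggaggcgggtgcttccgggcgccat
Zfp975: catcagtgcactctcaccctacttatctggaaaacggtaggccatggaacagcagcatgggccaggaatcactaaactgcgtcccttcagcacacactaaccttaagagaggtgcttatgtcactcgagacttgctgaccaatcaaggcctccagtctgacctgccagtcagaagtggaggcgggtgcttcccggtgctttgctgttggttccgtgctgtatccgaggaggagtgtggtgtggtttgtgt

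The windows of Zfp936 and Zfp975 aligned over 198 bases, of which 178 (89.9%) were identical, with a longest identical run of 32 bases. Across the other 14 pairs of these windows, identity was 55.8% to 70.6%, with no identical run beyond 11 bases. These windows lie before the start site, and the sequences of the array probes were not compared. Whether the values of Zfp936 and Zfp975 are separate was therefore not tested.

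Short motifs, chosen after the values were seen, were searched on both strands in the same windows. The longer form of the SBS element, ACTACAA followed directly by TTCC, stood in 4 of the 148 Zfp genes (2.7%), in 57 of 7332 other genes at a mean of at least 7 (0.777%) and in 80 of all 27025 genes (0.296%). Its shorter core, ACTACAA, which every longer match contains, stood in 6.08%, 4.83% and 3.27%. The NRF1 core stood in 6.76% of the Zfp genes and 5.95% of the others at this level, and the YY1 core AAGATGGC in 2.7% and 2.8%. An E-box stood in 9.46% and 10.9%, and by call in 6 of 31 Zfp genes that rose, 6 of 53 that fell and 2 of 64 not called. The NRF1 core stood in 2, 4 and 4 of these. The letters TATAAA stood in 10.1% of the Zfp genes and 7.12% of the others at this level. The Zfp windows held a median of 13 CpG pairs and 56.4% G and C, against 17 and 60.8%.

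The sites of the longer SBS letters are shown with 8 bases on each side, since this motif had the largest ratio of shares between the Zfp genes and other genes at their level. Capitals mark the letters, which read in reverse in the first 3 windows. They lie at chr8:111643410-111643436 (plus strand), chr7:24081867-24081893 (plus), chr13:67500534-67500560 (minus) and chr11:58307013-58307039 (plus).
Zfp1: gcattatgGGAATTGTAGTcctacacc
Zfp180: gagttctgGGAATTGTAGTtccattga
Zfp58: gacttgtgGGAATTGTAGTctggccac
Zfp692: taaggctaACTACAATTCCcggcaggc
All 4 sites start within 48 bases before the start site. Of the 4 genes, Zfp58 rose (0.51), and Zfp1 (-0.19), Zfp180 (-0.15) and Zfp692 (-0.09) were not called. A match is a description of the letters and shows no binding.

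Among Zfp genes linked to pluripotency, 4 of the 6 measured fell, none rose and 2 were not called. The median was -0.45, beside -0.04 for all genes at a mean of at least 7. The share called was 66.7%, all of it lower, beside 62.8% of genes at that level (29.0% higher, 33.7% lower). The other 2 of the 8 listed were not analysed here. Beside Zfp296, Zfp281, a regulator of the exit from naive pluripotency, went from 11.47 and 11.38 to 10.96 and 10.92 (-0.49 ± 0.06, SE, limma adjusted p = 7e-05). Zfp462, which is known to keep endoderm genes silent in ES cells, went from 11.85 and 11.66 to 11.35 and 11.13 (-0.51 ± 0.08). Their next probe sets by level gave -0.49 for Zfp281 and -0.70 for Zfp462. Zfp219 went from 9.46 and 9.52 to 9.08 on both arrays (-0.41 ± 0.07). All 3 falls were smaller than 2-fold but wider than the gap between replicates.

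Zfp217, a factor that limits RNA adenosine methylation in ES cells, was at 10.20 and 10.29 and then 10.47 and 10.30 (0.14 ± 0.08, adjusted p = 0.17). Zfp207, which binds Bub3 at the spindle, was at 11.73 and 11.62 and then 11.64 and 11.65 (-0.03 ± 0.06, adjusted p = 0.75). That value came from a probe set that may match several transcripts. Its next 3 probe sets by level gave -0.46, -0.43 and -0.48, and Zfp207 was called lower (-0.46, adjusted p = 0.0022) without such probe sets.

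Of 11 genes of retroelement and imprint control, 8 were measured, of which 4 fell, 1 rose and 3 were not called. Their median was -0.40, beside 0.01 for all genes and -0.04 for those at a mean of at least 7. The share called was 62.5%, close to the 62.8% of genes at a mean of at least 7 (29.0% higher, 33.7% lower). The 3 not called, Zfp708 (0.02), Zfp429 (-0.14) and Zfp92 (0.12), were those under the level. Zfp568, a repressor of the placental promoter of Igf2, was among the 6 brightest Zfp genes and went from 12.06 and 11.89 to 10.90 and 10.89 (-1.08 ± 0.07, SE, limma adjusted p = 3.3e-07). Its second probe set fell by 1.42. Zfp809, which brings Trim28 to the primer binding site of retroviruses, went from 10.43 and 10.41 to 9.55 and 9.71 (-0.79 ± 0.07). Zfp932 went from 9.59 and 9.62 to 8.97 and 8.92 (-0.66 ± 0.07).

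Zfp819 went from 7.78 and 7.57 to 6.61 and 6.16 (-1.29 ± 0.15, SE), with day 3 values below the level that chose the genes. Zfp445, which maintains imprints, went the other way, from a mean of 10.97 ± 0.05 (SD, n = 2) to 11.23 and 11.20 (0.25 ± 0.06, SE, limma adjusted p = 0.0061). That small rise was not called under median centring (0.111, adjusted p = 0.15), from the mean of its probe sets (0.163, adjusted p = 0.15), without the intensity trend (adjusted p = 0.054) or without day 3 replicate 1 (adjusted p = 0.061).

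A list of 18 genes held co-repressors that KRAB zinc fingers recruit and related genes of chromatin and DNA methylation. Of the 17 measured, 7 fell, 2 rose and 8 were not called, with a median of -0.18. The share called was 52.9% (11.8% higher, 41.2% lower), beside 62.8% of genes at a mean of at least 7 (29.0% and 33.7%, median -0.04) and 42.3% of all genes. Trim28, the scaffold of the complex, was at 13.92 and 13.89 at day 0 and at 13.52 and 13.45 at day 3 (-0.42 ± 0.05, SE, limma adjusted p = 2.9e-05). Setdb1, its histone methyltransferase, fell by 0.77 ± 0.07. The remodeller Smarcad1 fell by 1.03 ± 0.06, the only one of the 17 to reach 2-fold. The DNA methylation genes Uhrf1 (-0.64) and Dnmt1 (-0.45), Trim24 (-0.74) and Morc3 (-0.69) fell as well. Hdac2 (0.16) and Suv39h2 (0.24) rose. The heterochromatin protein genes Cbx1 (0.11), Cbx3 (-0.08) and Cbx5 (-0.08) were not called. Cbx3 was read from a probe set near 6, close to the median of all probe sets, where differences are harder to detect.

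Zfp genes whose products act on RNA, ribosomes or ubiquitin were all measured, and 5 of 9 were not called, 3 fell and 1 rose (median -0.01). The share called was 44.4% (11.1% higher, 33.3% lower), beside 62.8% of genes at a mean of at least 7 (29.0% and 33.7%). Zfp622, a factor of ribosome maturation, was the brightest of all Zfp genes at 12.70 and 12.74 and then 12.50 and 12.57. Its fall of 0.19 ± 0.05 (SE, limma adjusted p = 0.014) was the smallest called, and it was not called without the intensity trend (adjusted p = 0.13), without day 0 replicate 2 (adjusted p = 0.057) or without day 3 replicate 1 (adjusted p = 0.12). Zfp593, also of ribosome maturation, went from 9.08 and 9.0 to 8.23 on both arrays (-0.81 ± 0.08). Zfp598, a ubiquitin ligase that marks collided ribosomes, went from 10.25 and 10.27 to 9.80 and 9.84 (-0.44 ± 0.06).

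Zfp326, a subunit of a complex that couples elongation to splicing, rose from 9.77 and 9.56 to 10.06 and 10.14 (0.44 ± 0.08, SE, limma adjusted p = 0.0014). Zfp638 (-0.01), Zfp346 (0.07), Zfp91 (0.16), Zfp106 (0.16) and Zfp830 (-0.20) were not called. The next probe set by level gave 0.08 for Zfp638, 0.20 for Zfp346, -0.27 for Zfp91 and -0.44 for Zfp830. Zfp106 showed how a value can hang on its probe set. The kept one gave 0.16 and its next 3 by level gave -0.54, -0.24 and -0.68, and the mean of all was -0.281 and called lower (adjusted p = 0.013).

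Of 9 neural and developmental genes 7 were measured, of which 4 fell, none rose and 3 were not called. Their median was -0.36, beside 0.01 for all genes and -0.04 for those at a mean of at least 7. The share called was 57.1%, all of it lower. It was 42.3% of all genes (20.9% higher, 21.4% lower) and 62.8% of genes at a mean of at least 7 (29.0% and 33.7%). The 3 not called, Zfp703 (-0.02), Zfp503 (-0.22) and Zfp536 (-0.26), were those under the level. Beside Zfp423, Zfp704 went from 8.56 and 8.51 to 7.51 and 7.67 (-0.95 ± 0.09, SE, limma adjusted p = 1.3e-05), and a second probe set fell by 1.26. Zfp335, a subunit of histone methyltransferase complexes that is mutated in microcephaly, went from 7.88 and 7.94 to 7.49 and 7.61 (-0.36 ± 0.09, adjusted p = 0.01). It was not called without day 3 replicate 1 (-0.299, adjusted p = 0.1). Zfp365, whose product binds Disc1, had the widest day 0 replicates of the 4 that fell, at 8.13 and 7.58 and then 7.34 and 7.33. Its difference of -0.52 ± 0.15 (adjusted p = 0.018) was -0.247 and not called without day 0 replicate 1 (adjusted p = 0.11). It was also not called without either day 3 array (adjusted p = 0.14 each), without the intensity trend (0.056) or from the mean of its probe sets (-0.304, adjusted p = 0.05).

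**Figure D4:**
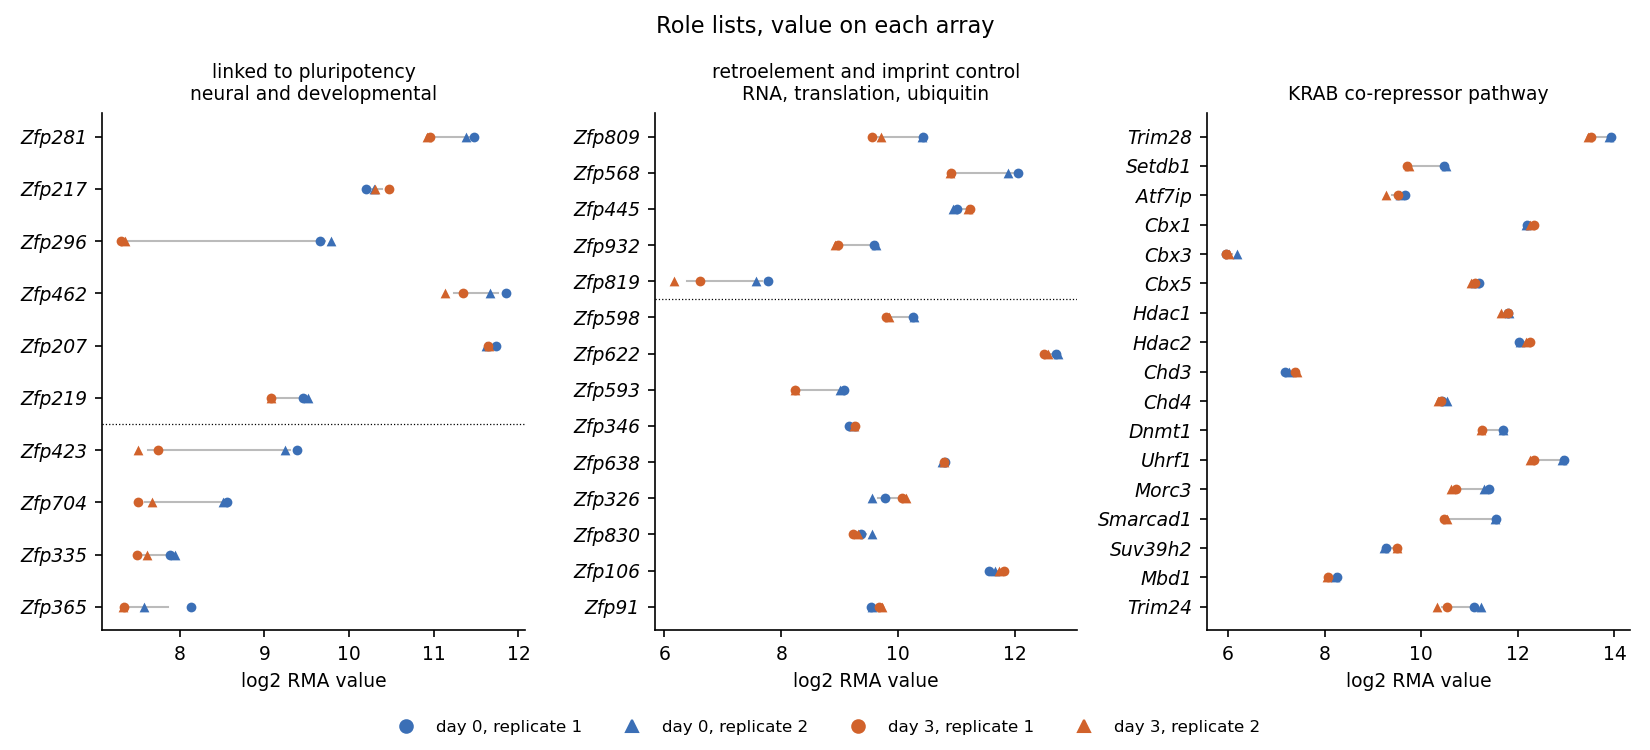
Log2 RMA value on each array, with blue for day 0, orange for day 3, circles for replicate 1 and triangles for replicate 2. Shown are the expressed Zfp genes of the 4 role lists, parted by dotted lines, and 17 co-repressor and related genes. Grey lines join the day means. Of the genes shown, the widest gap between days is that of Zfp296, followed by Zfp423, and several RNA-related genes have arrays that overlap or nearly touch.

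The brightest Zfp genes after Zfp622 were Zfp982, Zfp106, Zfp207, Zfp462 and Zfp568, with means between 11.4 and 12.4. Zfp982 went from 12.73 and 12.49 to 12.12 and 12.14 (-0.48 ± 0.07, SE, limma adjusted p = 0.0003), and its 2 other probe sets gave -0.78 and -0.42. Near the level of 7, Zfp790 (mean 7.005), Zfp398 (7.006) and Zfp11 (7.01) stood just inside. Zfp438 (6.99), Zfp524 (6.97) and Zfp13 (6.97) stood just outside.

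Of the 120 Zfp genes under the level, 24 were higher, 20 lower and 76 not called, with a median of 0.02. The share called was 36.7% (20.0% higher, 16.7% lower), beside 42.3% of all genes tested. The latter include the genes at a mean of at least 7, of which 62.8% were called, so the levels are unlike. The share among all genes under 7 was not computed. The largest rise among them was that of Zfp629, at 5.58 and 5.42 and then 7.82 and 7.73 (2.27 ± 0.11, SE, limma adjusted p = 6.9e-08). Zfp467 (2.02), Zfp386 (1.56) and Zfp711 (1.52) also rose, and Zfp286 fell by 1.26. These 5 were chosen after their values were seen. For comparison with other zinc finger families at a mean of at least 7, 4 of 29 Zbtb genes were higher and 12 lower (median -0.21). Of 12 Zscan and Zkscan genes 5 were higher and 2 lower (0.08), and of 17 Zfp genes with a lettered symbol 3 were higher and 9 lower (-0.24). Of all genes at that level 29.0% were higher and 33.7% lower (-0.04). Differences between these families were not tested.

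Chromosome 7 held 45 of the 181 expressed Zfp genes, more than any other chromosome, and 25 of them (55.6%) fell while 7 rose. Among 622 other genes of chromosome 7 at a mean of at least 7, 34.4% were lower and 28.3% higher. Of the 136 Zfp genes on other chromosomes, 41 (30.1%) were lower and 33 (24.3%) higher, with a median of 0.005 compared with -0.27 on chromosome 7. Falls outnumbered rises on chromosome 7 (25 to 7) and, by less, elsewhere (41 to 33). Of all genes at a mean of at least 7, 33.7% were lower and 29.0% higher (median -0.04). Both shares of the Zfp genes outside chromosome 7 lay below these. Chromosomes with fewer Zfp genes varied in their shares of falls. The share was 6 of 10 on chromosome 4 (60.0%, with 2 higher) and 4 of 7 on chromosome 18 (57.1%, with 1 higher). It was smaller on chromosome 13 (4 of 13), chromosome 8 (2 of 11) and chromosome 5 (1 of 10). The split by chromosome 7 was made after the values were seen and was not tested. On chromosome 17, the next in number, 5 of 24 fell and 6 rose, while 40.4% of its other genes at this level fell.

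Neighbouring Zfp genes were set side by side by their order in RefSeq. Runs were formed from at least 3 measured Zfp genes with at most 3 other genes between neighbours. There were 23 runs with 113 Zfp genes, of which 61 had reached the level. Of these 61, 24 fell and 12 rose, against 42 and 28 of the 120 expressed Zfp genes outside runs. For comparison, 36.5% of all expressed Zfp genes were lower and 22.1% higher, and 33.7% and 29.0% of all genes at a mean of at least 7. Whether genes in runs differ from the others was not tested. In 11 runs at least 2 expressed genes were called. The called genes were all higher in 3 of these runs and all lower in 4, and both directions occurred in 4.

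The largest run, on chromosome 17 from Zfp677 to Zfp943, held 13 genes, 5 of them under the level. Of the 13, 7 rose, 2 fell and 4 were not called (limma). The 8 expressed genes of this run split evenly, with 2 higher and 2 lower. For comparison, 20.9% of all genes tested were higher and 21.4% lower. At a mean of at least 7 these shares were 29.0% and 33.7%. The falls were those of Zfp229 and its neighbour Zfp820. Zfp229 went from 10.43 and 10.04 to 8.77 and 8.89 (-1.40 ± 0.11, SE), and Zfp820 went from 8.47 and 8.32 to 7.18 and 7.30 (-1.16 ± 0.10). Past the next measured Zfp gene, Zfp995, which was not called (0.01), Zfp942 rose by 1.31. Genes in the same run thus went in opposite directions by more than 2-fold.

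The other rises in this run were smaller or came from dim genes. Zfp760 rose by 0.37 ± 0.08 (SE, limma adjusted p = 0.0033) at a level near 9. Zfp52 (1.61), Zfp677 (1.04), Zfp54 (0.77), Zfp983 (0.69) and Zfp943 (0.36) rose from day 0 means of 4.57 to 6.61, below the level that chose the expressed genes. Zfp51 (-0.03), Zfp53 (0.12) and Zfp948 (0.19) were not called.

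Nearby on chromosome 17, a run of 4 from Zfp994 to Zfp946 held the large rise of Zfp946 beside those of Zfp758 (0.74) and Zfp994 (0.43), while Zfp944 (0.14) was not called. Another run there, Zfp871 (0.47), Zfp811 (0.72) and Zfp799 (0.79), rose in all 3 genes, of which Zfp811 was under the level. Against these, Zfp870 on the same chromosome went from 8.06 and 7.87 to 6.63 and 6.56 (-1.37 ± 0.11, SE). On chromosome 13, Zfp58 (0.51), Zfp87 (0.37) and Zfp748 (0.26) rose together. On chromosome 9, Zfp809 (-0.79) and Zfp599 (-0.71) fell side by side and Zfp810 (-0.16) was not called, whereas Zfp266 rose between Zfp560 (-0.30) and Zfp846 (-0.70), which fell. Sequence-related neighbours can share probes, so these values are not independent of each other.

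**Figure D5:**
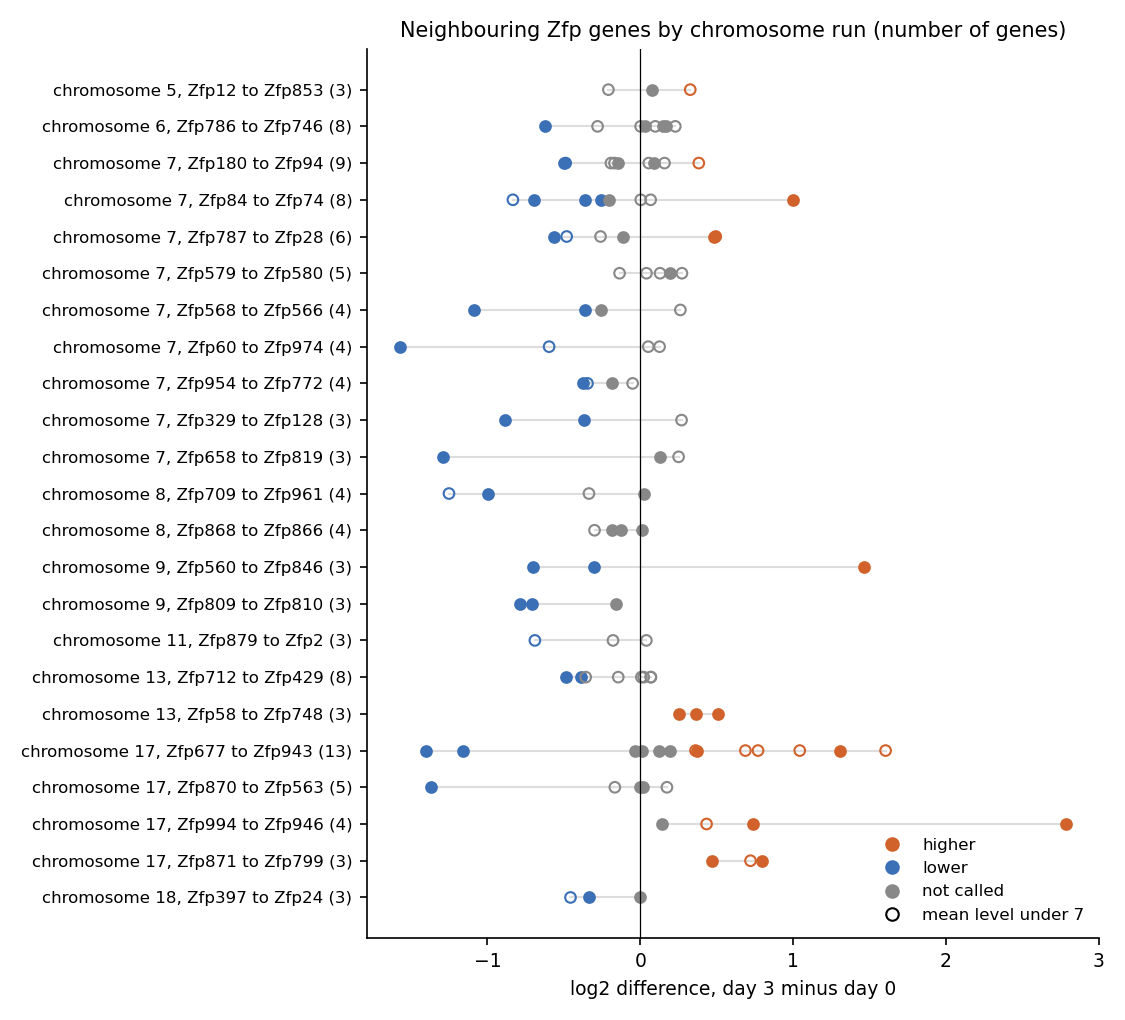
Log2 difference of day 3 minus day 0 for the Zfp genes of 23 chromosome runs, 1 row per run with its first and last gene and, in brackets, its number of genes; filled circles are expressed Zfp genes, open circles those with a mean under 7, and colours give the call. The run of 13 on chromosome 17 spreads from -1.40 to 1.61, and the chromosome 17 runs that end in Zfp946 and Zfp799 lie wholly to the right of 0.

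More than 1 probe set was present for 95 of the 181 genes. For genes that were called, the other probe sets at a mean of at least 7 went the same way as the kept one in 37 of 40 cases. The exceptions were a pair of probe sets of Zfp451 (0.08 and 0.32 against -0.47) and one of Zfp592 (-0.08 against 0.29), named after their values were seen. Among dimmer probe sets 39 of 55 went the same way. The kept probe set had a suffix for possible matches to several transcripts in 30 genes, of which 16 were lower and 5 higher. That is 53.3% lower and 16.7% higher, beside 36.5% and 22.1% of all 181 genes. Of genes at a mean of at least 7, 33.7% were lower and 29.0% higher.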

How the data were processed

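The deposited table gives 1 log2 value per probe set and array, made by the authors with RMA and R 2.13.0, per the submitters' processing notes; further settings are not stated there. RMA makes distributions alike, so a change in total RNA is not visible, and it compresses dim values; no detection calls were used. Array medians were 5.77 to 5.79. The number of arrays limits precision.

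Control probe sets (64) were left out, and 34945 of 45101 probe sets had 1 symbol in the platform annotation. Each of 18193 genes was represented by 1 probe set, the one brightest on average across the 4 arrays. The day difference came from limma 3.58.1 under R 4.3.3 (linear fit, eBayes with intensity trend, no covariate), two-sided, with Benjamini-Hochberg adjustment over all genes; SE is that of the fit. The procedure was run on data simulated from the fitted variances, with far fewer changed genes than were called here. Such data follow the assumptions of the fit, so they do not test those assumptions. All 181 genes had RefSeq entries (GRCm38.p6), used for order and promoters. Protein features were not analysed here.

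The members and lists were chosen with earlier results of these data known. Named genes are the 12 largest rises and falls with arrays apart, the 6 brightest, the 3 on each side of the level, role list genes and the largest run. Role lists, co-repressors and related genes, markers and families were described by counts. The promoter motifs, the chromosome 7 split and the level bands were added after the values were seen.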

Additional observations from a re-analysis of the deposited data

How the results depend on the processing

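As reported, 40 Zfp genes were higher and 66 lower, with a median difference of -0.068. Treat against a log2 difference of 0.5 left 13 higher and 26 lower. A level of 8 left 26 higher among fewer genes. With no filter on level, 64 of 301 genes were higher (21.3%) and 86 lower (28.6%), beside 22.1% and 36.5% as reported. The median moved to -0.202 with median centring, -0.04 for genes with a lower-day mean of at least 7, -0.018 at a level of 6 and -0.007 with no filter. With 1 array left out the counts were 30 to 41 higher and 51 to 67 lower, and the median -0.083 to -0.01, the last without day 0 replicate 1. Each of these fits leaves 1 day with a lone array, assumed to vary like the arrays of the other day; 77 of the 106 called genes were called the same way in all 4, which does not test that assumption. Replicate numbers did not pair the samples (correlation of their deviations -0.017), and the replicate block gave 40 higher and 65 lower. Other settings kept the counts within 1.5 times. Of 54 named expressed genes, 42 kept call and direction in every setting. The 2 reversals were Zfp59, at 0.145 without probe sets that may match several transcripts, where a dim probe set remained, and Zfp106, at -0.281 from the mean of its probe sets. Of 26 genes with a 2-fold difference, 24 were still measured without such probe sets and 22 were called the same way. Low signal limits the 23 genes whose mean was under 7 on 1 day.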
